A study of Mus musculus with 24 samples.

Results

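Islets of young mice on day 7 after partial pancreatectomy (PPTx, surgical removal of about 50% of the pancreas) were compared with islets of young mice on day 2, to ask which early differences had ended by day 7 and which programs stood higher later. The libraries were chosen by their titles, and 6 of the 24 libraries of the series were compared: 2 of day 7 and 4 of day 2. All came from male C57BL/6J mice operated on at 8 weeks of age, and whole islets were isolated by collagenase digestion and a density gradient. Beside them stand 4 control libraries from mice of that age without any operation, so controls had no sham surgery, and 2 libraries of day 14. For a comparison of ages, 4 day 2 and 2 day 7 libraries of 52-week-old mice after the same operation were used. Per the study's methods each sample pooled islets of 1-2 mice. The labels do not tie libraries to mice, so p-values measure the spread between these samples. The treatment label gives 2 days after surgery for every operated sample, including those titled day 7 and day 14, and the day used here is that of the title.

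Islets are clusters of endocrine cells in which insulin-secreting beta cells are the most common type. After part of the pancreas is removed, the remaining beta cells carry a larger secretory load, and insulin is folded in the endoplasmic reticulum (ER), whose chaperones are induced by the unfolded protein response. A cell that enters division first makes the proteins that copy DNA (G1/S) and later those that build the spindle and separate the chromosomes (G2/M). Regrowth also draws on ribosome production, since a dividing cell must make more protein.

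Total counts ran from 3924105 in day 2 replicate 1 to 8970315 in day 2 replicate 3. They were 5761164 and 6473147 at day 7. CPM is the unit used below for counts scaled to the size and composition of a library. Scaled to size alone, 1 count stood for 0.111 to 0.255 CPM, and the values below differ from that by the scaling to composition. Of the mapped reads, the part counted in a gene was 25.3 to 53.3% at day 2, lowest in replicate 1, and 38.3 and 41.1% at day 7. Ins1 and Ins2, the insulin genes, held 8.49 to 10.3% of counts at day 2 and 11.2 and 11.3% at day 7, so the labelled tissue carried its defining markers. Digestive enzymes of the exocrine pancreas were also present. The amylase-2 genes held 0.328 to 3.26% of counts at day 2, 1.24 and 4.07% at day 7, and 9.93 to 26.8% in controls. Every pair of replicates in a group differed by more than counting error. In the file names, day 2 replicates 1 and 2 share a code, replicates 3 and 4 share another, and both day 7 libraries share one that no day 2 library has, so that code and day cannot be told apart.

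Few genes passed the test between the days. Of 14493 genes tested, 5 (0.0345%) passed an adjusted p of 0.05, with 2 higher (0.0138%) and 3 lower (0.0207%) at day 7, against 1416 (9.77%) at an unadjusted p under 0.05. The test was edgeR's quasi-likelihood test across the 12 young libraries, and adjusted p-values are Benjamini-Hochberg values over all genes tested. The 3 that fell were Hspa1a and Hspa1b, which code for the stress-induced cytosolic chaperone HSP70, and Spata5, an ATPase of ribosome maturation. The 2 that rose were Klhl24, an adaptor of a ubiquitin ligase, and Abtb1, a protein with ankyrin repeats and a BTB domain. Between day 2 and control 1132 genes passed (7.81%), 635 higher (4.38%) and 497 lower (3.43%), and 21.6% had an unadjusted p under 0.05, with 11.5% higher and 10.1% lower. Controls held more acinar RNA than either day, as the amylase-2 shares show, and its part in the comparisons with control was not tested. DESeq2 called 203 genes between day 7 and day 2, of which 63 were higher and 140 lower.

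Hspa1a (chr17:35106144-35109069, minus strand, mm9) held 52.3, 48.3, 55.4 and 57.5 CPM in the 4 day 2 libraries and 19.5 and 19.6 CPM at day 7. Both day 7 libraries lay below every day 2 library and every control library, which ran from 31.4 to 49.6 CPM. The log2 difference between day 7 and day 2 was -1.45 (SE 0.168, adjusted p = 0.00491, edgeR). At day 14 the libraries held 58.9 and 70.0 CPM, so those were again above the day 7 level. In old islets Hspa1a held 39.0, 43.1, 152 and 96.7 CPM at day 2 and 50.4 and 37.2 CPM at day 7. The high values were in old day 2 replicates 3 and 4, which carry another run label. The change of Hspa1a between the days did not differ by age past the threshold (interaction -0.51, SE 0.619, adjusted p = 0.746, edgeR). Hspa1b lies beside it on the same strand (chr17:35093381-35096183, mm9) and held 59.5, 50.8, 63.8 and 64.4 CPM at day 2 and 22.4 and 19.6 CPM at day 7, a log2 difference of -1.51 (SE 0.178, adjusted p = 0.00491). Against control, Hspa1a and Hspa1b were lower at day 7 by log2 differences of -1.05 and -1.08, each with an adjusted p of 0.0375.

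Hspa1a and Hspa1b are near-identical copies, and only uniquely mapped reads were counted, so how their reads are divided is uncertain and they are not independent calls. The likeness extends to the promoters, which are shown for that reason. In the RefSeq windows of 300 bases, from 250 before to 50 after the start (GRCm38.p6, chr17:34972107-34972406 and chr17:34959189-34959488, both minus strand), 4 positions differ, and those are in capitals.
Hspa1a: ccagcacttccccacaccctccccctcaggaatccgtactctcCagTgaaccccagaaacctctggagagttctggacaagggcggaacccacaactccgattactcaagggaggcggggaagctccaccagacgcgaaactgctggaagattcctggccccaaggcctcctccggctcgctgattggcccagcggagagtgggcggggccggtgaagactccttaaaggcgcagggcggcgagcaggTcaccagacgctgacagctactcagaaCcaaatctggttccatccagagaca
Hspa1b: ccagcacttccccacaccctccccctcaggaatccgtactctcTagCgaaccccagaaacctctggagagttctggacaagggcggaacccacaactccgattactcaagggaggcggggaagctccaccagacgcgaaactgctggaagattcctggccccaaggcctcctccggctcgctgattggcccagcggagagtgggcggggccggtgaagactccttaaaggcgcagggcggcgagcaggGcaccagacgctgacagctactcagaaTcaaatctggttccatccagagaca

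Spata5 (chr3:37318818-37478018, plus strand, mm9) held 24.9, 28.1, 27.1 and 26.4 CPM at day 2 and 13.5 and 14.0 CPM at day 7. The day 7 libraries were below all controls too, which held 16.1 to 21.4 CPM. Its log2 difference was -0.95 (SE 0.145, adjusted p = 0.0427), after a rise of 0.57 between control and day 2 (adjusted p = 0.00678).

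Klhl24 (chr16:20097627-20127817, plus strand, mm9) was at 42.6, 28.3, 38.7 and 46.8 CPM at day 2 and at 76.7 and 81.6 CPM at day 7. No day 7 value overlapped day 2, and controls were higher still, at 85.6 to 110 CPM. The gene rose by 1.02 on the log2 scale from day 2 to day 7 (SE 0.155, adjusted p = 0.0427), having been lower at day 2 than in control by -1.36 (adjusted p = 0.000179). Abtb1 (chr6:88785909-88791929, minus strand, mm9) had the same order of groups, with 16.7, 13.7, 18.8 and 17.8 CPM at day 2 and 35.8 and 31.3 CPM at day 7. It rose by 0.99 (SE 0.154, adjusted p = 0.0427), and its day 7 values lay close to the 32.8 to 39.3 CPM of controls (log2 difference to control -0.09, adjusted p = 0.922).

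Each of the 5 calls was lost under some alternatives, while the direction held in all 20. Hspa1a and Hspa1b passed in 16 of the 20, and did not in a fit of all 24 libraries, by limma-trend on the RPKM values or without either day 7 library. Klhl24 passed in 12, and Spata5 and Abtb1 in 10 each. These 3 lost the call in the same fits, and also with the 6 libraries of days 2 and 7 alone and with day 2 replicates 3 and 4 only. They lost it too with the file name code as a block and without day 2 replicate 3. Spata5 and Abtb1 did so without day 2 replicate 2 as well, and in a further fit not listed here. With 2 libraries at day 7, leaving out 1 leaves a lone library that is assumed to vary like the other groups.

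**Figure D1:**
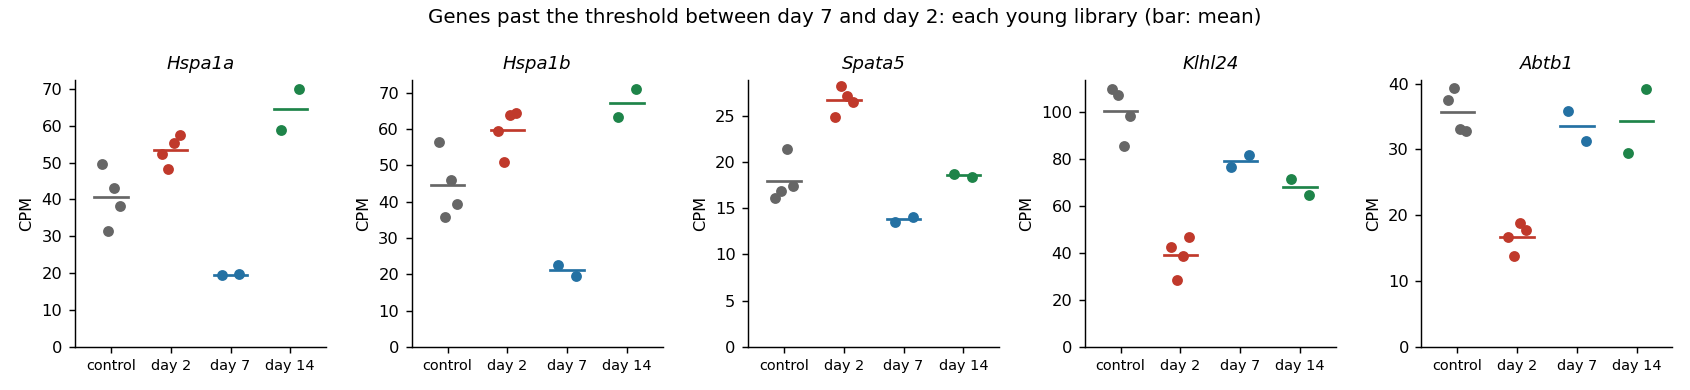
CPM of the 5 genes that passed the threshold between day 7 and day 2, in each of the 12 young libraries (points) with the group mean (bar), on linear axes that start at 0. Hspa1a at day 7 (19.5 and 19.6 CPM) lies below every other group, while Abtb1 at day 7 (35.8 and 31.3 CPM) is near the controls.

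The genes next in order did not pass. Among those with higher values at day 7, Glb1l2, a beta-galactosidase-like gene, held 183, 207, 212 and 225 CPM at day 2 and 310 and 348 CPM at day 7 (log2 difference 0.67, adjusted p = 0.0505). Those day 7 values were above the controls as well, at 226 to 260 CPM. Cmpk2, a mitochondrial nucleotide kinase, held 45.0, 44.9, 47.6 and 51.6 CPM at day 2 and 72.4 and 85.9 CPM at day 7 (0.74, adjusted p = 0.0505), and 62.8 to 80.9 CPM in controls. Spon2, a secreted matrix protein, was at 26.4 to 33.3 CPM at day 2, 57.7 and 52.9 CPM at day 7 and 30.8 to 38.4 CPM in controls (0.88, adjusted p = 0.105). Slc41a3, of a magnesium transporter family, had a log2 difference of 1.15 and Wbscr27, a methyltransferase-like gene, 1.22 (adjusted p = 0.105 for each). Crebrf, a regulator of CREB3, was at 34.8 to 48.0 CPM at day 2 and at 71.2 and 68.7 CPM at day 7, within the 68.2 to 101 CPM of controls (0.83, adjusted p = 0.105).

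Lower values at day 7 that did not pass were led by a mixed set. Tfrc, the transferrin receptor, held 65.7, 90.7, 74.9 and 85.0 CPM at day 2 and 44.9 and 47.2 CPM at day 7 (log2 difference -0.78, adjusted p = 0.105). Cycs, cytochrome c, held 151, 161, 192 and 138 CPM at day 2 and 97.0 and 102 CPM at day 7 (-0.69, adjusted p = 0.107). It had passed between day 2 and control, with a rise of 1.09 (adjusted p = 0.000224). Crem, a transcription factor of the cAMP response, was at 34.4 to 44.7 CPM at day 2 and 23.6 and 24.7 CPM at day 7 (-0.72, adjusted p = 0.107). Exog, a mitochondrial nuclease, Cdk2ap2, a CDK2-binding protein, and Sept11, a septin, had log2 differences of -0.96, -0.83 and -0.56, with adjusted p-values of 0.105, 0.107 and 0.107. Across all genes tested, both day 7 libraries lay above every day 2 library for 8.57% and below for 10.4%, and the median log2 difference was -0.02.

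The list of ER folding and unfolded protein response genes was lower at day 7 throughout. Of its 30 members 27 were tested, and the other 3 (Pdia4, Pdia6 and Syvn1) share a row with another gene. All 27 had a negative log2 difference between day 7 and day 2, 18 had both day 7 libraries below every day 2 library (10.4% of all genes), and 14 had an unadjusted p under 0.05 with the lower value at day 7 (5.86% of all genes). None passed the adjusted threshold with edgeR. DESeq2 called 6 (Hspa5, Manf, Creld2, Herpud1, Atf6b and Wfs1), all lower. The median of the list was -0.34 between day 7 and day 2, beside 0.56 between day 2 and control and 0.13 between day 7 and control. These comparisons share libraries, so the values are set side by side without a test of their relation. Between day 2 and control 15 of the 27 passed with a rise (4.38% of all genes). Ern1, a sensor of unfolded protein, passed with a fall (3.43% of all genes).

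Hspa5, which codes for BiP, the main chaperone of the ER lumen (chr2:34627490-34632051, plus strand, mm9), held 4113, 4195, 3858 and 3499 CPM at day 2 and 2256 and 2536 CPM at day 7. The groups did not overlap, and controls held 1639 to 2125 CPM. Its log2 difference was -0.71 (SE 0.159, adjusted p = 0.143), after a rise of 1.07 from control to day 2 (adjusted p = 0.000509). Creld2, an ER-resident stress protein, was at 322, 285, 367 and 225 CPM at day 2 and 185 and 172 CPM at day 7 (-0.75, adjusted p = 0.231). Manf, a secreted ER stress protein, was at 238, 269, 282 and 222 CPM and then 152 and 157 CPM (-0.71, adjusted p = 0.269). Dnajb9, a co-chaperone of BiP, had the most negative value of the list, -1.10 (adjusted p = 0.231), with 153 to 266 CPM at day 2 and 85.2 and 112 CPM at day 7.

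Other members were also lower at day 7 or overlapped day 2. Wfs1, an ER membrane protein of beta cells, held 231, 302, 255 and 258 CPM at day 2, 165 and 178 CPM at day 7 and a mean of 194 CPM in controls (-0.61, adjusted p = 0.192), and had risen by 0.43 between control and day 2 (adjusted p = 0.0488). Herpud1, of ER-associated degradation, held 267 to 408 CPM at day 2 and 236 and 254 CPM at day 7, beside a control mean of 348 CPM (-0.46, adjusted p = 0.290), with a log2 difference between day 2 and control of -0.04 (adjusted p = 0.886). Xbp1, a transcription factor of the response, was at 431 to 497 CPM at day 2 and 425 and 464 CPM at day 7 (-0.10, adjusted p = 0.897); the row does not separate its spliced form. Hsp90b1, the ER form of HSP90, was at 1545 to 1991 CPM and then 1335 and 1413 CPM (-0.32, adjusted p = 0.487). The PERK-ATF4 arm, the branch that slows translation and induces amino acid genes, was less uniform. Of 18 tested, 13 had negative values, and the median was -0.15. In that arm 3 genes lay below every day 2 library and 1 above (10.4% and 8.57% of all genes). Sesn2, of that arm, was higher at day 7 (51.6 and 48.2 CPM against 31.8 to 39.6 CPM, log2 difference 0.53, adjusted p = 0.220).

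Promoter windows were searched for letters tied to this response. The ER stress response element was searched as CCAAT and CCACG with 9 bases between them, on both strands, and each match also holds CCAAT. Windows of the same length were found for 27 of the 30 list members and for 27025 genes in all. The element was in 10 of the 27 (37.0%) and in 37 of all genes (0.137%), and CCAAT in 23 of the 27 (85.2%) and in 41.1% of all genes. Hspa5 is shown as the member with the highest counts among the chaperones that the element is known for (GRCm38.p6, chr2:34771840-34772139, plus strand), with its 1 match in capitals. A match is a description of letters and not of binding in these islets.
Hspa5: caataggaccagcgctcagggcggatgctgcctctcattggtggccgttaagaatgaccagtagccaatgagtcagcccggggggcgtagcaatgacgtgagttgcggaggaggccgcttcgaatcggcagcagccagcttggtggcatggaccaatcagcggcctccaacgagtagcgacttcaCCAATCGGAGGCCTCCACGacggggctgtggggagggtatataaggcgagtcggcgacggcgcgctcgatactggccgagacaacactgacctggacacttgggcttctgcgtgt

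**Figure D2:**
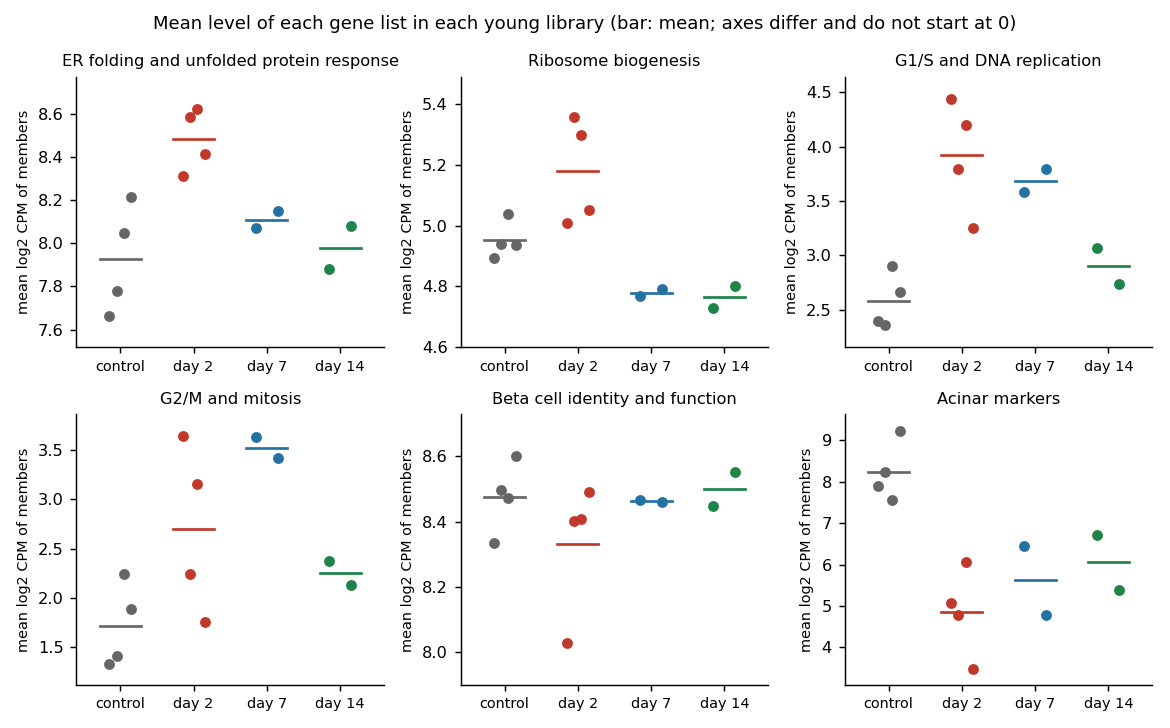
Mean log2 CPM of the members of 6 gene lists in each young library (points) with the group mean (bar); the axes differ and do not start at 0. The ER list at day 7 (8.07 and 8.15) lies below all day 2 libraries (8.31 to 8.62), whereas the G2/M list at day 7 (3.63 and 3.42) lies within the day 2 range (1.76 to 3.65).

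Ribosome biogenesis genes, which act in the nucleolus on ribosomal RNA, were also lower at day 7. All 16 tested of 20 members had negative values, 10 lay below every day 2 library (10.4% of all genes) and 9 had an unadjusted p under 0.05 with the lower value at day 7 (5.86% of all genes), with none past the adjusted threshold (DESeq2 called Nop58, Nolc1 and Rrp12). The list's median was -0.34 between day 7 and day 2, 0.22 between day 2 and control and -0.18 between day 7 and control. Its mean log2 CPM was 5.01 to 5.36 at day 2, 4.77 and 4.79 at day 7 and 4.89 to 5.04 in controls, so the day 7 libraries were below both groups. Rrp12, of pre-ribosome export, held 29.0, 36.1, 33.2 and 23.2 CPM at day 2 and 14.5 and 16.5 CPM at day 7 (-0.97, SE 0.195, adjusted p = 0.107). Nop58, a core protein of small nucleolar RNA particles, held 37.6, 50.2, 49.8 and 33.0 CPM and then 28 and 23.2 CPM (-0.74, adjusted p = 0.149). Both had risen between control and day 2, by 0.87 and 0.50 (adjusted p = 0.00364 and 0.0367).

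Cytosolic and mitochondrial chaperones were listed after Hspa1a and Hspa1b had been seen, so their counts only describe where those genes sit. Of 19 tested, 16 had negative values and 7 lay below every day 2 library (10.4% of all genes). Hspa8, the constitutive HSP70, held 1907, 2957, 1823 and 2002 CPM at day 2 and 1459 and 1551 CPM at day 7 (-0.53, adjusted p = 0.344). Hspd1 and Hspe1, the mitochondrial chaperonin pair, had log2 differences of -0.43 and -0.55 (adjusted p = 0.266 and 0.267), and Stip1, a co-chaperone of HSP70 and HSP90, -0.53 (adjusted p = 0.248). None of these 4 passed, and for Hspa8 the day 2 library with the highest value was replicate 2.

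The replication program was partly lower at day 7 and overlapped day 2. Of 48 tested G1/S and DNA replication genes 39 had negative values, 3 lay below every day 2 library, and 8 had an unadjusted p under 0.05 with the lower value at day 7, none past the adjusted threshold. Over all genes 10.4% lay below every day 2 library, a larger share than in this list, and 5.86% were lower at an unadjusted p under 0.05. The median was -0.27 between day 7 and day 2, 1.41 between day 2 and control and 1.02 between day 7 and control. Between day 2 and control 35 of the 48 passed with a rise (4.38% of all genes). Between day 7 and control none passed, where only 0.0276% of all genes passed with a rise. That comparison had 2 day 7 libraries, so these counts do not show that the program had ended. Day 2 libraries differed widely among themselves. The list's mean log2 CPM was 4.43, 3.80, 4.20 and 3.25 in day 2 replicates 1 to 4, 3.58 and 3.79 at day 7, and 2.36 to 2.90 in controls. Without day 2 replicate 1, which had the smallest part of reads counted in genes, the median was -0.12, and without day 7 replicate 1 it was also -0.12. It was -0.42 without day 2 replicate 4 and -0.44 without day 7 replicate 2. With day 2 replicates 1 and 2 only it was -0.45, and with replicates 3 and 4 only -0.07. With that part of reads as a covariate in the fit it was -0.27, with 40 of 48 negative.

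Subunits of the MCM helicase, which unwinds DNA at origins, had negative values in each of the 6 genes Mcm2 to Mcm7. Mcm5 held 57.1, 34.4, 46.7 and 23.6 CPM at day 2, 19.0 and 26.9 CPM at day 7 and 4.10 to 8.01 CPM in controls. The day 7 libraries overlapped day 2 and lay above all controls. Its log2 difference was -0.81 (SE 0.334, adjusted p = 0.440), after a rise of 2.70 to day 2 (adjusted p = 0.000377). Other subunits overlapped between the days in the same way. Mcm2 held 75.5, 50.5, 84.4 and 38.0 CPM and then 35.6 and 39.9 CPM (-0.72, adjusted p = 0.384), and Mcm6 97.5, 77.6, 106 and 54.3 CPM and then 49.5 and 66.0 CPM (-0.54, adjusted p = 0.441). Pcna, the sliding clamp of DNA polymerase, held 52.5, 46.8, 54.0 and 40.6 CPM and then 30.2 and 41.7 CPM (-0.43, adjusted p = 0.492). The 3 members below every day 2 library, no larger a share than over all genes, were Timeless, Gins1 and Cdc6. Timeless, of the replication fork, was at 8.41 and 8.52 CPM against 10.6 to 18.8 CPM (-0.79, adjusted p = 0.315), and Gins1, of the replicative helicase, (-1.53, adjusted p = 0.284) at 1.15 and 0.578 CPM against 2.15 to 2.97 CPM. Gins1 was near the floor, counted 7 and 4 times at day 7 and 11, 13, 23 and 23 times at day 2. Cdc6, which loads the helicase, was at 8.24 and 8.38 CPM against 8.90 to 25.5 CPM (-1.05, adjusted p = 0.468).

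Mitotic genes had the opposite sign. Of 45 tested G2/M members 44 had positive values between day 7 and day 2, 10 had both day 7 libraries above every day 2 library (8.57% of all genes), and 9 had an unadjusted p under 0.05 with the higher value at day 7 (3.91% of all genes). None passed the adjusted threshold. The median was 0.72 between day 7 and day 2, 1.15 between day 2 and control and 1.87 between day 7 and control. Between day 2 and control 7 of the 45 passed with a rise (4.38% of all genes). The mean log2 CPM of the list was 3.65, 2.24, 3.16 and 1.76 in day 2 replicates 1 to 4, 3.63 and 3.42 at day 7, 2.38 and 2.13 at day 14, and 1.33 to 2.24 in controls. The day 7 libraries stood beside the highest day 2 library, and day 2 replicates 2 and 4 were the lowest of the operated libraries up to day 7. Without day 2 replicate 4 the median was 0.49, and without replicate 1 it was 1.02.

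Cenpa, the histone of centromeres (chr5:30969150-30977200, plus strand, mm9), had the smallest p of the list. Its CPM was 3.46, 1.82, 2.58 and 1.16 at day 2, 7.75 and 6.21 at day 7, and 1.44 on average in controls, and the days did not overlap. The log2 difference was 1.65 (SE 0.381, adjusted p = 0.147) against day 2 and 2.26 against control, the latter past the threshold (adjusted p = 0.0498). Ccnb2, a mitotic cyclin, was at 6.70, 3.15, 6.24 and 1.68 CPM at day 2 and 9.89 and 12.1 CPM at day 7 (1.32, adjusted p = 0.347). Ccnb1, the other B-type cyclin (chr13:101548605-101556525, minus strand, mm9), was at 20.8, 9.77, 12.7 and 4 CPM and then 31.8 and 19.8 CPM, so 1 day 7 library lay within the day 2 range (1.16, adjusted p = 0.334). Plk1, a mitotic kinase, was at 1.29 to 6.92 CPM and then 11.4 and 8.81 CPM (1.44, adjusted p = 0.366), and Nek2, a centrosome kinase, at 3.87 to 16.9 CPM and then 23.2 and 19.3 CPM (1.23, adjusted p = 0.403). For these genes day 2 replicate 4 was the lowest and day 7 the highest or near it. Other members had smaller values. Mki67, the proliferation antigen, held 69.0, 19.9, 55.5 and 20.4 CPM and then 64.0 and 51.0 CPM (0.49, adjusted p = 0.804), and Top2a, a topoisomerase, 72.4, 25.3, 71.3 and 21.8 CPM and then 60.5 and 61.8 CPM (0.36, adjusted p = 0.885). Cdk1, the mitotic kinase itself, overlapped as well (0.39, adjusted p = 0.884). Ccna2 shares a row with another gene and is not given.

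The letters TTTGAA of the cell cycle genes homology region (CHR), on both strands, were in 31 of 43 G2/M promoters with a window (72.1%) and in 20.2% of all genes, and CCAAT in 34 of the 43 (79.1%) and in 41.1% of all genes. Windows were found for 43 of 52 members. For the G1/S list windows were found for 39 of 53 members (73.6%), too few for a check, so its shares are not given. Cenpa, the member with the smallest p, and Ccnb1, a mitotic cyclin, are shown as examples with and without TTTGAA, with both motifs in capitals. The pair does not stand for the list: Mki67, Top2a and Cdk1 hold TTTGAA, overlapped day 2 and had smaller differences than Ccnb1. Cenpa (GRCm38.p6, chr5:30666636-30666935, plus strand) holds 1 match to TTTGAA and 2 to CCAAT. Ccnb1 (chr13:100786437-100786736, minus strand) holds 2 to CCAAT and 0 to TTTGAA in this window.
Cenpa: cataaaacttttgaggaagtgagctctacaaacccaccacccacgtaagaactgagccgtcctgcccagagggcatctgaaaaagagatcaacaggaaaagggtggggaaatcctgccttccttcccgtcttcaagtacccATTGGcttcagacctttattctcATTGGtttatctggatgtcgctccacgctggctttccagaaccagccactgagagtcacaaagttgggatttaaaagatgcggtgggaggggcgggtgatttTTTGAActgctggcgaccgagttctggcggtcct
Ccnb1: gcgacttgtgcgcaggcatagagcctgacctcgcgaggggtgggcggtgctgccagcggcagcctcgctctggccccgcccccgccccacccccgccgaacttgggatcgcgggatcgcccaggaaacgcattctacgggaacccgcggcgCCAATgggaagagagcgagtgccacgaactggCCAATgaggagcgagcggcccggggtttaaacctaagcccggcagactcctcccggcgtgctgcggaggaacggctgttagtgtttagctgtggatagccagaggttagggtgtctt

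**Figure D3:**
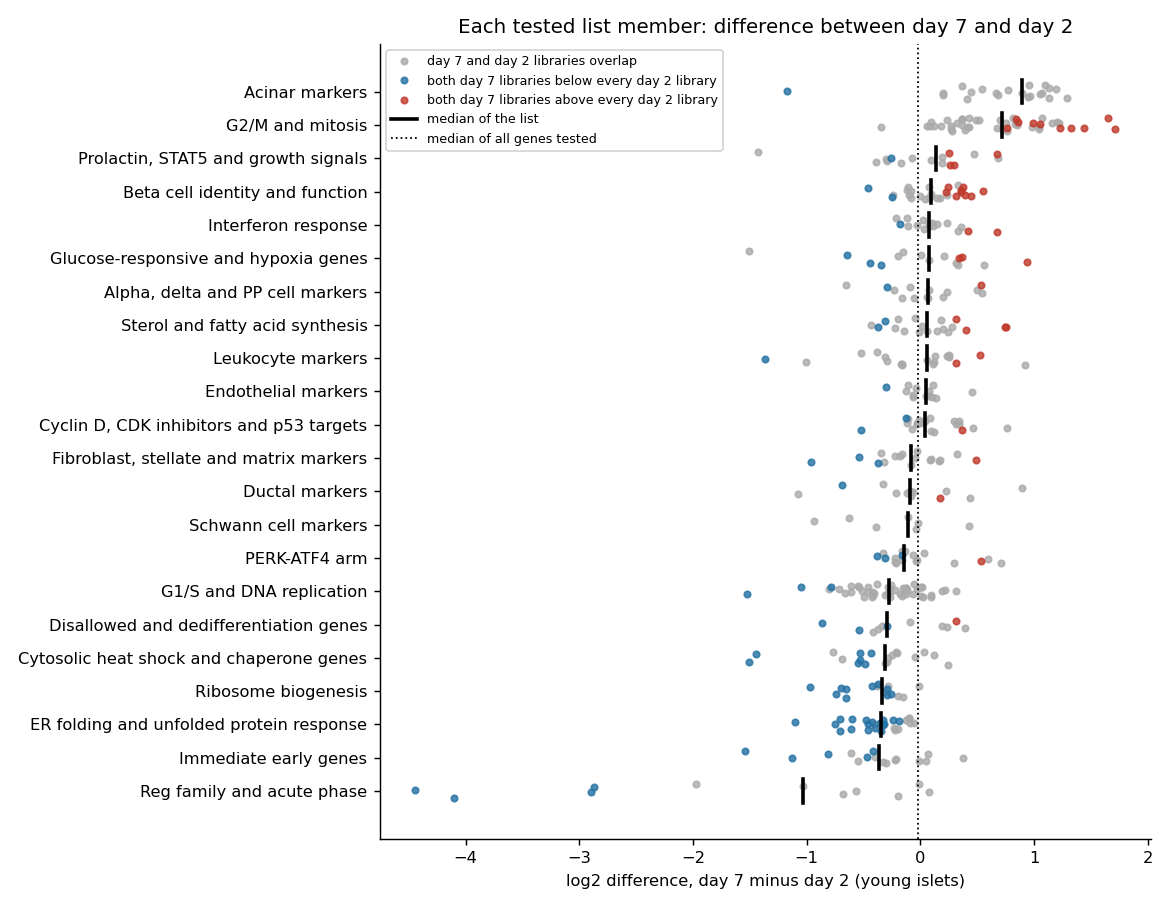
Log2 difference between day 7 and day 2 for every tested member of each gene list (points), coloured by whether both day 7 libraries lie above or below every day 2 library, with the list's median (bar) and the median of all genes tested (dotted line). The ER and ribosome lists lie to the left of 0 in all 27 and all 16 tested members, and the G2/M list to the right in 44 of 45.

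Regulators that act before replication did not move as a group. Of 21 tested cyclin D, CDK inhibitor and p53 target genes 12 had positive values, with a median of 0.04. In this list 2 genes, Ccnd1 and Cdkn2c, had an unadjusted p under 0.05, no larger a share than over all genes (9.77%). Ccnd1, cyclin D1, held 43.5, 48.5, 49.6 and 55.6 CPM at day 2 and 32.8 and 36.0 CPM at day 7, below every day 2 library and near the control mean of 29.2 CPM (-0.52, SE 0.139, adjusted p = 0.218). It had risen between control and day 2 by 0.76 (adjusted p = 0.00147). Cdkn2c, an inhibitor of CDK4, had a value of 0.76 (adjusted p = 0.396), and Sesn1, a p53 target, 0.29 (adjusted p = 0.590). Among 16 tested prolactin, STAT5 and growth signal genes the median was 0.14. Both day 7 libraries lay above every day 2 library for 4 (8.57% of all genes) and below for 1 (10.4% of all genes). Stat5b, of prolactin and growth hormone signalling, held 113 and 124 CPM at day 7 against 89.5 to 107 CPM (0.30, adjusted p = 0.483). Myc, a growth regulator, held 4.54, 6.62, 8.06 and 13.8 CPM at day 2 and 15.3 and 11.8 CPM at day 7 (0.69, adjusted p = 0.656), and Igf1r, the IGF1 receptor, 25.1 and 26.2 CPM at day 7 against 28.6 to 34.9 CPM (-0.26, adjusted p = 0.602).

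Beta cell identity genes were higher at day 7 in 18 of 27 tested members. Of the 27, 9 lay above every day 2 library (8.57% of all genes) and 2 below (10.4% of all genes). None passed, and the median was 0.09 between day 7 and day 2, -0.20 between day 2 and control and -0.02 between day 7 and control. Much of the spread came from day 2 replicate 1, whose mean log2 CPM over the list was 8.03 beside 8.40 to 8.49 in the other day 2 libraries and 8.46 and 8.47 at day 7. Without that library the median was 0.03, and with day 2 replicates 3 and 4 only it was -0.03. Slc2a2, the glucose transporter GLUT2, held 312, 438, 424 and 480 CPM at day 2 and 549 and 579 CPM at day 7 (0.45, SE 0.155, adjusted p = 0.321), after a fall of 0.57 between control and day 2 (adjusted p = 0.0148). Ins1 held 7351, 9756, 10789 and 10498 CPM and then 12648 and 12303 CPM (0.38, adjusted p = 0.594), and Ins2 64674, 79908, 86687 and 85063 CPM and then 94735 and 92015 CPM (0.24, adjusted p = 0.791). For each of these 3 genes day 2 replicate 1 was the lowest of the 6 libraries and day 7 the highest. Rfx6, an endocrine transcription factor, held 117 to 136 CPM and then 149 and 173 CPM (0.35, adjusted p = 0.308). Mafa, an activator of insulin transcription, went the other way, with 64.0, 99.3, 69.9 and 68.3 CPM and then 52.8 and 56.7 CPM (-0.46, adjusted p = 0.444), and had risen by 0.74 between control and day 2 (adjusted p = 0.0101). In bulk islets fewer cells of a type and less RNA per cell cannot be told apart.

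**Figure D4:**
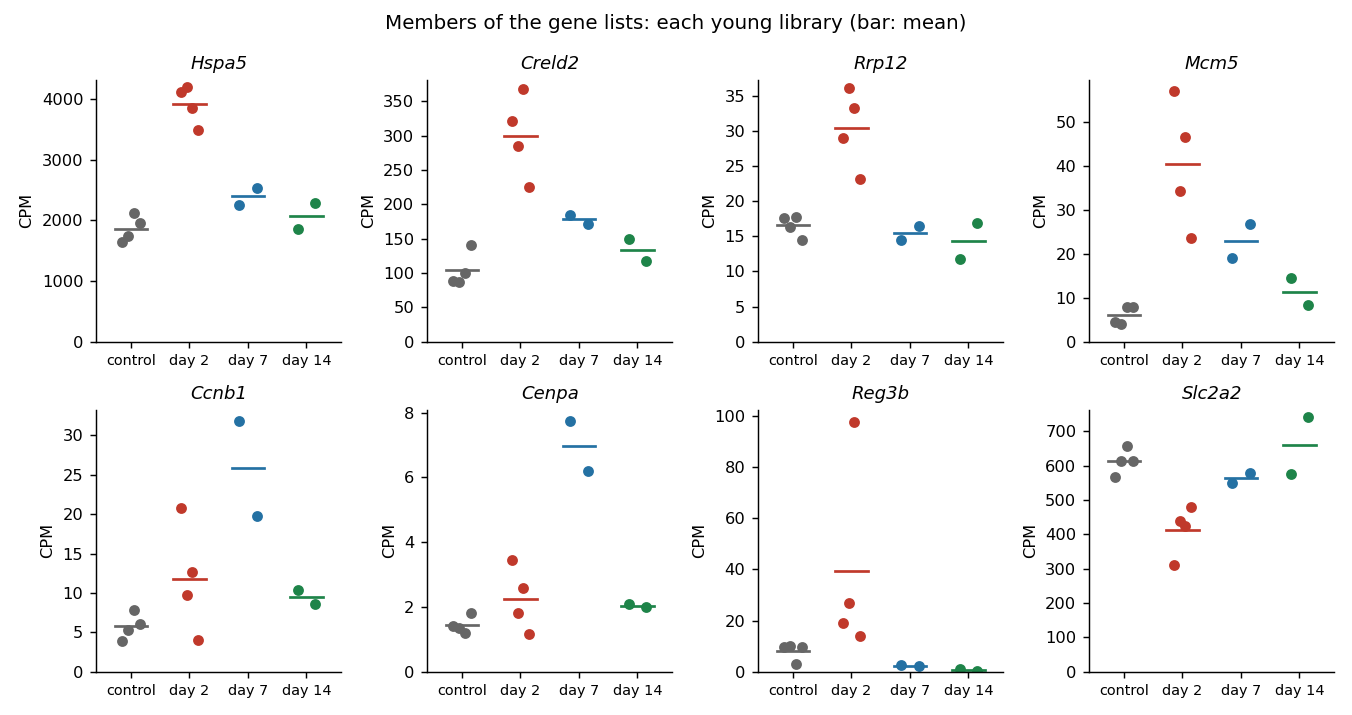
CPM of 8 list members in each of the 12 young libraries (points) with the group mean (bar), on linear axes that start at 0. Hspa5, Creld2 and Rrp12 at day 7 lie below every day 2 library, Cenpa above, and Mcm5 and Ccnb1 overlap day 2.

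Markers of the other endocrine cells had a median of 0.07 over 14 tested. Ttr, transthyretin of alpha cells, held 329, 322, 386 and 307 CPM at day 2 and 472 and 500 CPM at day 7 (0.53, adjusted p = 0.282), and Sstr3, a somatostatin receptor, 158 to 203 CPM and then 155 and 153 CPM (-0.29, adjusted p = 0.450). Gcg, glucagon, overlapped between the days, at 5391 to 12738 CPM and 10171 and 12566 CPM. Genes normally kept low in beta cells had a median of -0.29 over 11 tested. Among them 3 lay below and 1 above every day 2 library (10.4% and 8.57% of all genes). Ldha, lactate dehydrogenase A, held 24.4, 24, 23.3 and 32.6 CPM at day 2 and 14.7 and 21.1 CPM at day 7 (-0.54, adjusted p = 0.347), and Igfbp4, an IGF-binding protein, 6.77 to 13.8 CPM and then 3.96 and 6.50 CPM (-0.87, adjusted p = 0.384).

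The largest differences among the lists were in the Reg family, secreted lectins made by injured pancreas. Reg3b (chr6:78320879-78323460, plus strand, mm9) held 19.2, 26.8, 97.5 and 13.9 CPM at day 2 and 2.47 and 2.17 CPM at day 7. The groups did not overlap, and replicate 3 stood well above the other day 2 libraries. The log2 difference was -4.10 (SE 0.852, adjusted p = 0.113). Reg3g held 3.24, 5.13, 21.9 and 3.48 CPM and then 1.65 and 0.722 CPM (-2.87, adjusted p = 0.290). Reg3a was counted 9, 21, 130 and 14 times at day 2 and 2 and 1 times at day 7, a ratio of day 7 to day 2 of 0.0368 (95% exact interval 0.00751 to 0.109, counting error only), with an adjusted p of 0.212. Reg3a and Reg3g had risen between control and day 2 (adjusted p = 0.00916 and 0.00558), and Reg3b by 2.31 (adjusted p = 0.0174). Of 22 genes in the list of Reg and acute phase genes, 11 passed the filter on low counts, among them 10 with negative values, with a median of -1.03. The other 11, including Saa1, Saa2 and Tnf, were too low to test. Acinar cells also make Reg proteins, and day 2 replicate 3 had the highest acinar marker level of the day 2 libraries, while day 7 replicate 1 was higher in those markers and low in Reg3b. The part of acinar RNA in this result was not tested.

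Immediate early genes, which respond within minutes to signals and handling, had negative values in 13 of 16 tested, with a median of -0.37. Of the 16, 5 lay below every day 2 library (10.4% of all genes). Here the median was negative against control at both days (-0.24 at day 2 and -0.60 at day 7). Fos, of the AP-1 factor, held 9.95, 6.95, 8.60 and 11.3 CPM at day 2 and 3.63 and 4.77 CPM at day 7 (-1.13, adjusted p = 0.340), and Klf2, a Kruppel-like factor, 7.85 to 14.1 CPM and then 6.43 and 5.78 CPM (-0.81, adjusted p = 0.282). Metabolic lists were mixed. Insig1, a sterol sensor, held 131, 171, 148 and 186 CPM at day 2 and 299 and 238 CPM at day 7 (0.76, adjusted p = 0.212), but the sterol and fatty acid list had a median of 0.06 over 19 tested. Arrdc4, an arrestin domain gene that responds to glucose, held 22.7, 15.4, 21.5 and 28 CPM and then 40.6 and 43.5 CPM (0.94, SE 0.175, adjusted p = 0.105), and had been lower at day 2 than in control (-0.68, adjusted p = 0.0121). Pgk1, of glycolysis, went the other way (-0.45, adjusted p = 0.251), and the list of 15 tested glucose-responsive and hypoxia genes had a median of 0.08. Interferon response genes had a median of 0.08 over 17 tested, and Rsad2, an antiviral enzyme, held 18.6 and 16.6 CPM at day 7 against 9.41 to 13.6 CPM (0.68, adjusted p = 0.248).

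Markers of other cells that islets can carry were not ordered by day. Acinar markers had positive values in 20 of 21 tested (median 0.89), but with none above every day 2 library, and without day 7 replicate 1 the median was -0.27. Their summed level was 1093 to 10370 CPM at day 2, 3801 and 12333 CPM at day 7 and 37811 to 121555 CPM in controls, and Ptf1a was at 0 in all 6 libraries. Against control the median of the acinar list was -3.51 at day 2 and -2.68 at day 7. Between day 2 and control 20 of the 21 passed with a fall (3.43% of all genes) and 0 with a rise. Bhlha15, a secretory transcription factor on that list that endocrine cells may also express, was lower at day 7, at 45.2 and 51.0 CPM against 88.4 to 134 CPM (-1.18, SE 0.252, adjusted p = 0.124). Leukocyte markers summed to 187 to 254 CPM at day 2 and 220 and 234 CPM at day 7, with a median difference of 0.06 over 19 tested. Among them C1qa, a complement gene of macrophages, held 27.2 and 28.7 CPM at day 7 against 18.2 to 21.0 CPM (0.52, adjusted p = 0.224), and Mrc1, a macrophage receptor, 1.98 and 2.02 CPM against 2.81 to 8.00 CPM (-1.37, adjusted p = 0.282). Ductal, matrix, endothelial and Schwann cell lists had medians of -0.09, -0.08, 0.05 and -0.11. Krt18, a keratin, was lower at day 7, at 103 and 131 CPM against 165 to 221 CPM (-0.69, adjusted p = 0.147), and Fn1, fibronectin, at 7.58 and 7.94 CPM against 9.44 to 24.7 CPM (-0.97, adjusted p = 0.282).

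Against control 15 genes passed at day 7 (0.103%), of which 11 were lower (0.0759%) and 4 higher (0.0276%). At an unadjusted p under 0.05 there were 9.7%, with 4.87% higher and 4.83% lower. The 4, named after their values were seen, were Cenpa, Fam111a, of DNA replication, Cgn, a tight junction protein, and Ffar2, a short-chain fatty acid receptor. Cgn held 103 to 132 CPM at day 2 and 122 and 123 CPM at day 7 against 76.0 to 81.9 CPM in controls, and its values at the 2 days overlapped (log2 difference 0.11, adjusted p = 0.824). Ffar2 held 46.0 to 52.6 CPM and then 55.2 and 61.4 CPM, against 31.8 to 40.7 CPM in controls (0.22, adjusted p = 0.562). Fam111a held 9.29 to 19.2 CPM and then 11.5 and 12.7 CPM (-0.18, adjusted p = 0.927).

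The change between the days was compared with that in old islets by the interaction of age and day, coded as the young minus the old difference. Of 15451 genes 0 passed with edgeR (0%), 1882 had an unadjusted p under 0.05 (12.2%, with 5.66% positive and 6.52% negative), and DESeq2 called 129. The smallest p-values with a positive sign belonged to Crebrf (1.31, adjusted p = 0.116), Dcdc2a, a doublecortin domain gene (1.44, adjusted p = 0.122), and Rgs11, a regulator of G protein signalling (1.13, adjusted p = 0.236). Those with a negative sign were Spata5 (-1.17), Slc11a2, an iron transporter (-0.88), and Gart, of purine synthesis (-0.87), each with an adjusted p of 0.236. For Hspa5 the interaction was -0.92 (SE 0.228, adjusted p = 0.267), with 2748, 2743, 2169 and 2568 CPM at day 2 and 2423 and 3603 CPM at day 7 in old islets. For Hspa5 the days overlapped in old islets and did not in young ones.

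As lists, the ER genes had a median interaction of -0.39, and 15 of 27 had an unadjusted p under 0.05 with a negative sign (6.52% of all genes). Ribosome biogenesis had a median of -0.38, with 7 of 16 so placed. In old islets the mean log2 CPM of the ribosome list was 5.19 to 5.30 at day 2 and 5.24 and 5.38 at day 7, and in young islets, scaled together with the old, 5.12 to 5.40 and 4.86 and 4.89. The G1/S list had a median interaction of -0.39 and the G2/M list 0.21, with 0 of 45 at an unadjusted p under 0.05 in either direction. Interferon response genes had a median of -0.88, with 10 of 17 at an unadjusted p under 0.05 and a negative sign. Their mean log2 CPM was 3.26 to 3.48 and then 4.89 and 4.05 in old islets, and 2.85 to 3.05 and then 3.15 and 3.09 in young islets, so in both ages day 7 lay above day 2. The old day 2 replicates 3 and 4 carry another run label. With the libraries of the first label only, 0 genes passed the interaction. Since 0 also passed with all libraries, that fit cannot show whether the label matters. The list values above are not given for it.

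**Figure D5:**
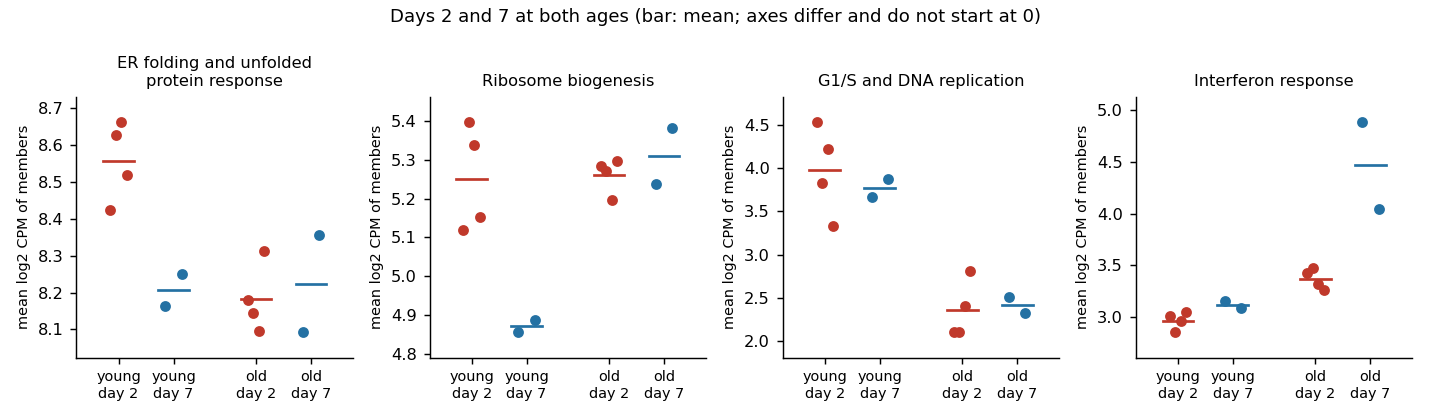
Mean log2 CPM of the members of 4 gene lists at days 2 and 7 in young and old islets, scaled together, for each library (points) with the group mean (bar); the axes differ and do not start at 0. Both young day 7 libraries lie below every young day 2 library in the ER and ribosome lists, while old day 7 overlaps old day 2.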

How the data were processed

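RNA of whole islets was sequenced after amplification with a low-input kit, and each library has 1 file of 22197 RefSeq gene rows. Per the file headers and processing notes, the authors trimmed reads (Trimmomatic 0.36), aligned them with TopHat2 2.1.1 to mm9 and counted uniquely mapped reads per gene with rpkmforgenes, and these counts were deposited unnormalized. The deposited RPKM values were scaled by the authors to gene length and to the reads in genes. The study's methods name HISAT2, HTSeq and Ensembl genes instead, so the headers were followed. Reads shared by gene copies were not counted, and 1458 rows join several gene names and 441 repeat one, so their members are not given.

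Counts were filtered by expression, scaled by TMM and fitted with edgeR 4.0.16 (quasi-likelihood test, R 4.3.3) across the 12 young libraries, with 8 residual degrees of freedom. The interaction with age was fitted across the day 2 and day 7 libraries of both ages. CPM values carry the TMM scaling, log2 CPM a prior count of 2, and log2 RPKM a pseudocount of 1. The fit was tested on simulated data. DESeq2 1.42.0 and limma 3.58.1 were alternatives. Alternatives also covered scaling, filters, the libraries fitted, single libraries left out, a replicate block, a file name code and the share of reads in genes.

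Named genes were up to 10 per direction with the largest difference among those that passed, did not overlap between the days and had a mean log2 CPM above 1, filled up by the smallest p, the 3 with the smallest p of each list and of each interaction sign, and a short list of chaperone, replication, mitosis, Reg and insulin genes. Other list members in the text (Creld2, Dnajb9, Manf, Herpud1, Xbp1, Ern1, Cdc6, Mcm7, Nek2, Plk1 and Gcg) were picked after their values were seen. The libraries and the 21 lists of 487 genes were chosen with earlier results of these data known. The heat shock list, Cgn, Ffar2 and Fam111a were chosen after their values were seen. Promoter windows are from RefSeq, GRCm38.p6, and gene positions from mm9. Intervals cover counting error only.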

Additional observations from a re-analysis of the deposited data

Results flagged for a closer look

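Among 117 gene values sought in the 4 young day 2 libraries, 4 had 1 library apart from the others by more than Dixon's limit, where chance gives about 1 in 20, or 5.85. Sept11 was lowest in replicate 4, at a log2 CPM of 6.29 with the nearest library at 6.48. Atf6b was highest in replicate 2, at 6.58 with the nearest at 6.36. Ldha was highest in replicate 4, at 5.04 with the nearest at 4.63. Sstr3 was lowest in replicate 1, at 7.30 with the nearest at 7.63.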

How the results depend on the processing

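With 2 libraries at day 7, the number of genes that passed between day 7 and day 2 was 5 and ran from 0 (without either day 7 library) to 26 (without day 2 replicate 4) when 1 library was left out, being 9, 3 and 2 without day 2 replicates 1, 2 and 3. It was 203 by DESeq2, 73 with the share of reads in genes as covariate, 23 without a filter, 10 and 3 with day 2 replicates 1-2 or 3-4 only, 3 with a fold change of at least 2, 2 with the 6 libraries alone or the file name code as block, and 0 in a fit of all 24 libraries or by limma-trend. The causes were not tested. A replicate block gave 26, but only 2 numbers are shared, and their deviations correlated at 0.235 and -0.0045. With 2 day 7 libraries the deviations of 1 mirror those of the other, so whether the numbers pair the libraries cannot be told.

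Between day 2 and control 3171 genes passed by limma-trend, where the median of all genes was shifted by 0.24, 224 with a fold of at least 2, and 637 to 1334 with 1 library left out (735 and 669 without control replicates 1 and 2, 713 and 637 without day 2 replicates 2 and 3). Between day 7 and control 440 passed by limma-trend (shift 0.21), 234 by DESeq2, 151 without a filter, 117 with the replicate block, 82 with the share covariate, 23 in rows with an unrepeated name, 9 with a fold of at least 2, and 1 to 21 with 1 library left out (1 and 2 without day 7 replicates 1 and 2, 4 and 7 without control replicates 1 and 2). The interaction gave 129 by DESeq2, 9 with the covariate, 1 without a filter and 0 to 2 with 1 library left out.

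List medians moved as follows. With 1 library left out, the G1/S list was -0.440 to -0.118, the PERK-ATF4 list -0.166 to -0.0798, the beta cell list 0.0272 to 0.184, the alpha, delta and PP list -0.0705 to 0.145, the sterol list -0.0016 to 0.223, the ductal list -0.171 to 0.0430, the leukocyte list -0.131 to 0.179 and the matrix list -0.320 to -0.0219. The cyclin D list was 0.117 with the replicate block and 0.0202 to 0.120 with 1 library left out, and the prolactin list 0.0419 to 0.214. The beta cell list was 0.290 with day 2 replicates 1-2 only. The disallowed list was -0.125 with replicates 3-4 only, -0.110 by limma-trend and -0.259 to -0.0133 with 1 left out. The Reg list was -0.193 at 10 or more counts, where only 3 members were tested, so that value is not of the same set of genes. It was -1.86 with replicates 3-4 only, -0.306 by limma-trend and -1.86 to -0.908 with 1 left out. The glucose list was 0.230 with replicates 1-2 only and 0.0113 to 0.273 with 1 left out. The interferon list was -0.0044 to 0.114, the acinar list -0.272 to 1.53 and the heat shock list -0.434 to -0.243 with 1 left out. The endothelial list was -0.034 with replicates 3-4 only, -0.0012 with the block and -0.0215 to 0.0709 with 1 left out, and the Schwann list -0.367 with the block and -0.357 to 0.0178. The causes were not tested. Of 101 named genes 100 kept their direction in every alternative run, and Fam111a, at -0.18, was at -0.333 to 0.0058 with 1 library left out, the latter without day 2 replicate 1.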
